A study of Mus musculus with 6 samples.

Results

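miR-122, miR-192, miR-194, miR-215 and miR-375 are miRNAs best known from liver, gut, kidney and pancreatic islets, and their levels were examined in the aorta of atherosclerosis-prone mice. The 5 miRNAs were chosen by name, as those whose main known sites of expression lie outside the vessel wall, with earlier results of these data known. They are 5 of 596 mouse miRNA assays in the deposited table, of which 461 gave a signal in at least 1 aorta and 350 in all 6. Real-time PCR array cards were run on total RNA from whole aortas of 3 EC-Dicerflox mice (VE-Cadherin-CreERT2, Dicer1 flox/flox, Apoe-/-) and 3 EC-DicerWT mice (VE-Cadherin-CreERT2, Dicer1 WT/WT, Apoe-/-). Both groups lacked apolipoprotein E, carried the tamoxifen (TMX)-inducible Cre recombinase, and received TMX at 2 mg per 20 g body weight on 5 days. Both were put on a high-fat diet (HFD) at 6 to 8 weeks of age and ate it for 4 weeks. The VE-cadherin promoter that drives Cre is active in endothelial cells (ECs), so that the deletion of Dicer, the RNAse that cuts most miRNA precursors, was aimed at the cell layer lining the vessel. The whole aortic wall was sampled, and fewer cells of a type and less RNA per cell cannot be told apart in such samples.

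A miRNA pairs with its target mRNAs mainly through its seed, the short stretch near its 5′ end, and lowers their translation or stability. miR-122 is the main miRNA of hepatocytes, where it acts in cholesterol and fatty acid metabolism. miR-192, miR-194 and miR-215 belong to cotranscribed clusters that are active in gut epithelium, liver and kidney, and miR-375 is abundant in islet beta cells and in secretory epithelium. Hepatocytes release miR-122 and miR-192 into plasma, so miRNAs of this kind are known from blood as well as from their tissue of origin.

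The mature sequences of the clustered miRNAs are shown because a seed is shared between 2 of them and the third is made from hairpins beside each. The seed (bases 2 to 8) is in capitals, and the sequences are those of RefSeq (assembly GRCm38.p6).
miR-192: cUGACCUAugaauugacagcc
miR-215: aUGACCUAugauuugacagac
miR-194: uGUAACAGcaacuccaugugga

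miR-192 and miR-215 carry the same seed and, of 1679 mature mouse miRNAs in the RefSeq table, are the 2 that carry it. They are identical at 18 of 21 bases. From miR-192 to miR-215, counting from 1 at the 5′ end, the substitutions are C1A, A12U and C20A. miR-194 has another seed, which no other mature miRNA in that table carries. The mature miR-192 lies at chr19:6264857-6264877 on the plus strand and miR-215 at chr1:185313610-185313630 on the plus strand. miR-194 comes from 2 genes with the same mature sequence, Mir194-1 at chr1:185313325-185313346 and Mir194-2 at chr19:6264658-6264679, both on the plus strand. The hairpins of Mir194-2 and Mir192 are 115 bases apart on chromosome 19, and those of Mir194-1 and Mir215 are 195 bases apart on chromosome 1, where both overlap the gene Iars2. The miR-194 assay therefore reads the sum of a partner of miR-192 and a partner of miR-215.

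All 5 miRNAs gave a signal in 6 of 6 aortas. The readout is the cycle threshold (CT), the PCR cycle at which the signal appears: 40 is the detection limit, a higher CT means less RNA, and 1 cycle stands for a factor of 2 if amplification is complete. The highest CT of the 5 miRNAs in any sample was 33.68. A plant miRNA assay on the cards, ath-miR159a, which should give no signal in mouse RNA, was at the limit in all samples but EC-DicerWT replicate 3, where 1 of its 2 assays read 39.58, so that a CT just under 40 is no evidence of the miRNA. Between 375 and 415 assays were under 40 per sample, the lowest number in EC-Dicerflox replicate 3, which also had the latest control RNAs (mean CT of U6 and snoRNA135 of 20.22, against 18.70 to 19.61 in the other 5). Levels are therefore given below as minus delta CT, the mean CT of these control RNAs minus the CT of the miRNA, in log2 units. The smooth muscle miRNAs miR-143 and miR-145 and the endothelial miR-126-3p and miR-126-5p, which define the labelled tissue, were all under 40 in 6 of 6 samples.

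miR-122 spanned the widest range of the 5. Its CT was 24.20, 20.52 and 28.05 in EC-Dicerflox replicates 1, 2 and 3, and 26.44, 23.12 and 25.66 in EC-DicerWT replicates 1, 2 and 3. As a level relative to the control RNAs this was -5.31, -1.82 and -7.82 in EC-Dicerflox and -7.63, -4.17 and -6.05 in EC-DicerWT aortas. The highest and the lowest aorta were both EC-Dicerflox, replicates 2 and 3, and differed by 6.01 log2 units or 64.4-fold. Ordered by CT among all assays of its own sample, miR-122 was number 43 in EC-Dicerflox replicate 2 but number 174 in EC-Dicerflox replicate 3, and between 83 and 167 in the others. Its standard deviation (SD) over the 6 aortas was 2.26 log2 units, which placed it 12th in spread among the 350 miRNAs with a signal in all samples, whose median SD was 0.481.

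miR-192 and miR-194, neighbours on chromosome 19, were highest in the same aortas as miR-122 and spanned narrower ranges. The level of miR-192 was -5.31, -3.17 and -5.93 in EC-Dicerflox and -6.16, -4.52 and -6.25 in EC-DicerWT replicates 1, 2 and 3. That of miR-194 was -6.39, -5.20 and -6.80 in EC-Dicerflox and -6.68, -5.94 and -6.97 in EC-DicerWT replicates 1, 2 and 3. For both miRNAs EC-Dicerflox replicate 2 was highest, EC-DicerWT replicate 2 came next and EC-DicerWT replicate 3 was lowest. The groups overlapped for both. The range was 3.08 log2 units (8.47-fold) for miR-192 and 1.77 log2 units (3.41-fold) for miR-194, with SDs of 1.20 and 0.66 over the 6 samples. On raw CT values, without control RNAs, the SD of miR-194 was 1.14.

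miR-215 was late on the cards. Its CT was 31.30, 31.78 and 33.68 in EC-Dicerflox and 31.08, 30.66 and 31.05 in EC-DicerWT replicates 1, 2 and 3. Its level was -12.41, -13.08 and -13.46 in EC-Dicerflox and -12.27, -11.72 and -11.44 in EC-DicerWT aortas. All 3 EC-Dicerflox values lay below every EC-DicerWT value, although EC-Dicerflox replicate 1 and EC-DicerWT replicate 1 were 0.13 log2 units apart. The CT of miR-215 exceeded that of its seed partner miR-192 in the same sample by 5.19 to 9.91 cycles, a difference between 2 assays that also holds their amplification efficiencies.

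miR-375 was between these in CT, at 29.45, 30.74 and 30.81 in EC-Dicerflox and 27.89, 27.90 and 29.42 in EC-DicerWT replicates 1, 2 and 3. Its level was -10.56, -12.04 and -10.59 in EC-Dicerflox and -9.08, -8.95 and -9.81 in EC-DicerWT aortas. Again the groups did not overlap, with every EC-Dicerflox aorta lower. EC-Dicerflox replicate 2, the aorta with the most miR-122, miR-192 and miR-194, had the least miR-375.

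**Figure D1:**
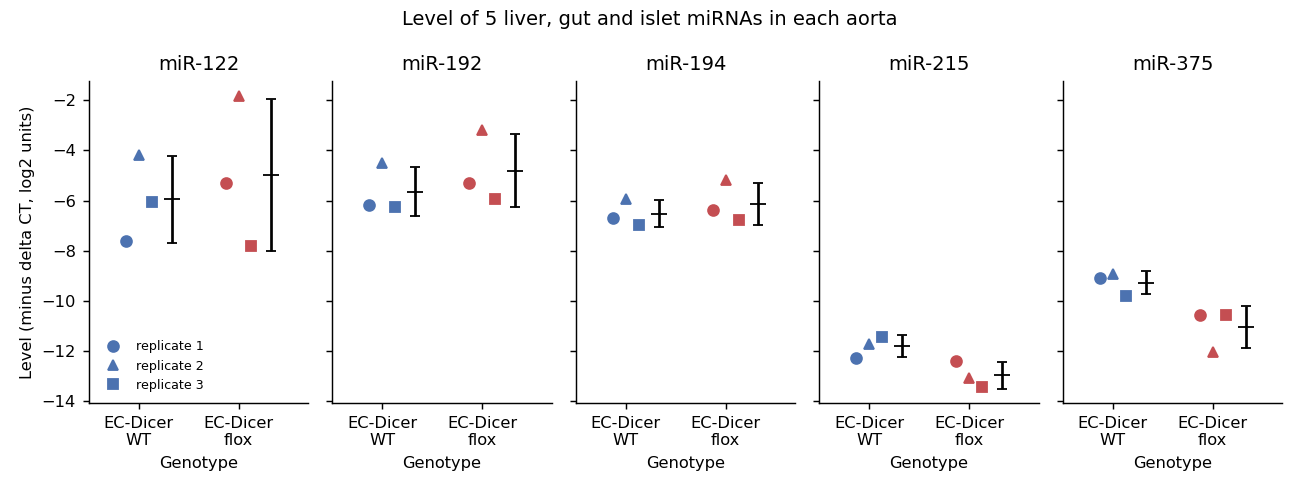
Level of each miRNA (minus delta CT against U6 and snoRNA135, log2 units) in the 3 EC-DicerWT (blue) and 3 EC-Dicerflox (red) aortas, with the replicate number given by the symbol and the group mean and SD in black. The groups overlap for miR-122, miR-192 and miR-194, whereas all EC-Dicerflox points lie below the EC-DicerWT points for miR-215 and miR-375.

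The comparison of genotypes asks whether the levels of these miRNAs in the aorta depend on Dicer in ECs. None of the 5 passed the adjusted test, and neither did any other miRNA (limma with Benjamini-Hochberg adjustment over 461 miRNAs, 0% called, smallest adjusted p = 0.508). The adjusted p of each of the 5 was 0.923. At an unadjusted p under 0.05 the limma fit gave 9 lower and 5 higher miRNAs, or 1.95% and 1.08% of those tested. miR-215 and miR-375 were among the 9 lower ones.

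For miR-375 the mean level was -11.06 ± 0.84 in EC-Dicerflox and -9.28 ± 0.46 in EC-DicerWT aortas (SD, n = 3 each). The difference was -1.78 log2 units with a standard error (SE) of 0.53 and a 95% interval of -3.11 to -0.45, or 0.291 times the EC-DicerWT level (limma, unadjusted p = 0.0180). This p ranked 6th of 461, while 7.38% of the tested miRNAs had a lower estimate. Leaving out EC-DicerWT replicate 1 or 2 took the unadjusted limma p to 0.0564 and 0.0585. Leaving out replicate 2 of both groups took the difference to -1.13 log2 units (limma, unadjusted p = 0.0748).

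For miR-215 the mean level was -12.98 ± 0.53 in EC-Dicerflox and -11.81 ± 0.42 in EC-DicerWT aortas (SD, n = 3 each). The difference was -1.17 log2 units (SE 0.40, 95% interval -2.18 to -0.15), or 0.445 times the EC-DicerWT level (limma, unadjusted p = 0.0313, 8th of 461). Blocking on replicate number gave an unadjusted limma p of 0.0879, and p was over 0.05 in 4 of the 6 fits that left out 1 aorta. Groups that do not overlap, as for miR-215 and miR-375, were seen in 4.34% of all tested miRNAs with EC-Dicerflox lower and in 6.07% with EC-Dicerflox higher. The exact permutation test over the 6 samples gave p = 0.1 for either miRNA, the smallest two-sided value that 3 against 3 samples allow.

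The 3 remaining miRNAs had higher means in EC-Dicerflox aortas with intervals that spanned 0. The difference for miR-122 was 0.97 log2 units (SE 1.76, 95% interval -3.47 to 5.41), an interval that leaves the direction and the size undetermined. It was 0.84 for miR-192 (SE 0.90, 95% interval -1.43 to 3.12) and 0.40 for miR-194 (SE 0.54, 95% interval -0.96 to 1.76). The unadjusted limma p-values were 0.604, 0.390 and 0.488 in this order, and the exact permutation p-values were 0.7, 0.5 and 0.6. Without EC-Dicerflox replicate 2 alone the difference was -0.61 for miR-122 and -0.064 for miR-194, and 0.026 for miR-192. Between aortas sharing a replicate number the differences were 0.86, 1.35 and 0.32 for miR-192, 0.29, 0.74 and 0.18 for miR-194, and 2.32, 2.36 and -1.77 for miR-122. Those of miR-192 and miR-194 were positive in all 3, but the labels do not mark same-numbered aortas as pairs and another matching can change the sign. EC-Dicerflox replicate 1 was below EC-DicerWT replicate 2 for miR-192 (-5.31 against -4.52) and for miR-194 (-6.39 against -5.94). Without replicate 2 of both groups the differences were 0.59 for miR-192, 0.23 for miR-194 and 0.28 for miR-122. Over all tested miRNAs the median difference was 0.082, with 210 lower and 251 higher, while the 5 miRNAs were 2 lower and 3 higher with a median of 0.40.

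**Figure D2:**
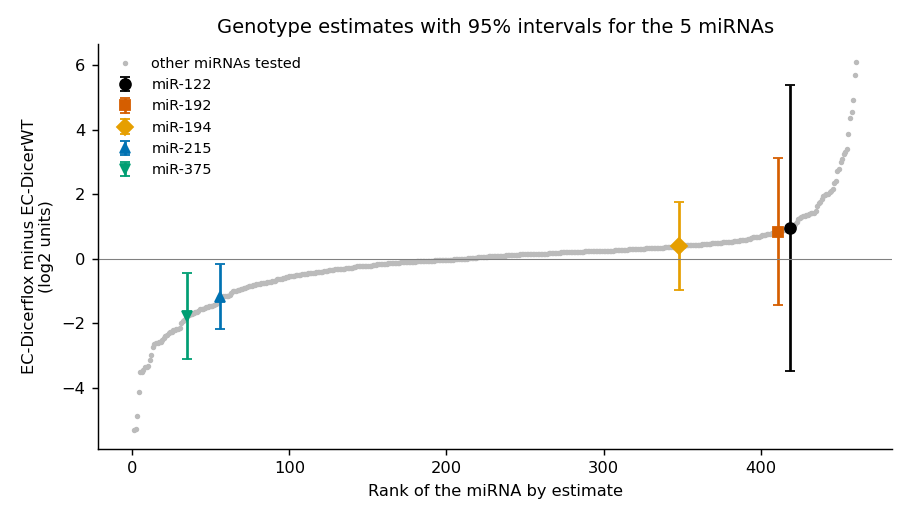
Difference between EC-Dicerflox and EC-DicerWT aortas (log2 units) for the 461 miRNAs tested, ordered by estimate (grey), with the 5 miRNAs in colour and their 95% limma intervals as bars. The intervals of miR-122, miR-192 and miR-194 span 0, and those of miR-215 and miR-375 lie below 0 without passing the adjusted test.

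A difference between the CTs of 2 miRNAs in the same aorta needs no control RNA. By this measure miR-375 came 5.25, 8.87 and 4.66 cycles after miR-192 in EC-Dicerflox and 2.92, 4.43 and 3.56 cycles after it in EC-DicerWT replicates 1, 2 and 3. The gap was 2.62 cycles wider in EC-Dicerflox aortas and the groups did not overlap (exact permutation p = 0.1). The gaps between miR-194 and miR-375 (2.18 cycles wider) and between miR-194 and miR-215 (1.57 cycles wider) also did not overlap, each with the same exact p. These were 3 of 10 pairs, and over all 61075 pairs of miRNAs with a signal in all 6 aortas 11.3% of gaps did not overlap. The 3 gaps largely restate that miR-375 and miR-215 did not overlap singly. Without EC-Dicerflox replicate 2 the 3 gaps were wider by 1.32, 1.23 and 1.06 cycles. Over the 10 pairs compared, the lowest exact p adjusted by the Benjamini-Hochberg method was 0.333. The cluster partners miR-192 and miR-194 stayed 0.52 to 2.03 cycles apart, with means of 1.33 ± 0.62 in EC-Dicerflox and 0.88 ± 0.47 in EC-DicerWT aortas (SD, n = 3 each; exact permutation p = 0.4).

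The levels of miR-192 and miR-194, and less firmly of miR-122, varied together from aorta to aorta. This was seen in these values first and tested on the same values afterwards, so the p-values below describe a pattern that had been noticed and are not independent evidence for it. Across the 6 aortas Pearson's r was 0.991 for miR-192 and miR-194, 0.938 for miR-122 and miR-192, and 0.916 for miR-122 and miR-194. The exact permutation p adjusted over the 10 pairs was 0.037 for each of the 3. This test shuffles the 6 aortas freely. Replicate 2 was high in both groups, and the p-values are too small if a replicate number marks a shared condition, which the labels do not say. Spearman's rho was 0.943, 0.771 and 0.829 in the same order, with adjusted exact permutation p-values of 0.167, 0.257 and 0.257, so the rank correlations did not pass on this scale. That of miR-192 and miR-194 passed in 2 of 7 other scalings, raw CT and U6 alone (rho of 1, adjusted exact permutation p = 0.0278 in both), and those of miR-122 in none.

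Without the 2 aortas farthest from the median of the first miRNA, r over the remaining 4 was 0.884 for miR-192 and miR-194 (without replicate 2 of both groups). For the miR-122 pairs, EC-Dicerflox replicates 2 and 3 were the farthest, and r without them was 0.875 with miR-192 and 0.740 with miR-194. Without replicate 2 of both groups, the highest aortas, r fell to 0.561 for miR-122 and miR-192 and 0.385 for miR-122 and miR-194, so that the relations of miR-122 rested largely on those 2 aortas. Taken as deviations from the group means, to remove genotype, r was 0.991, 0.945 and 0.914. The points share the control RNAs used for scaling. Among the 349 other miRNAs with a signal in all 6 aortas, the most alike to miR-122 were miR-192 and miR-194, and the most alike to miR-192 were miR-194 and miR-122. miR-194 was most alike to miR-192, followed by miR-322* (r = 0.969).

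**Figure D3:**
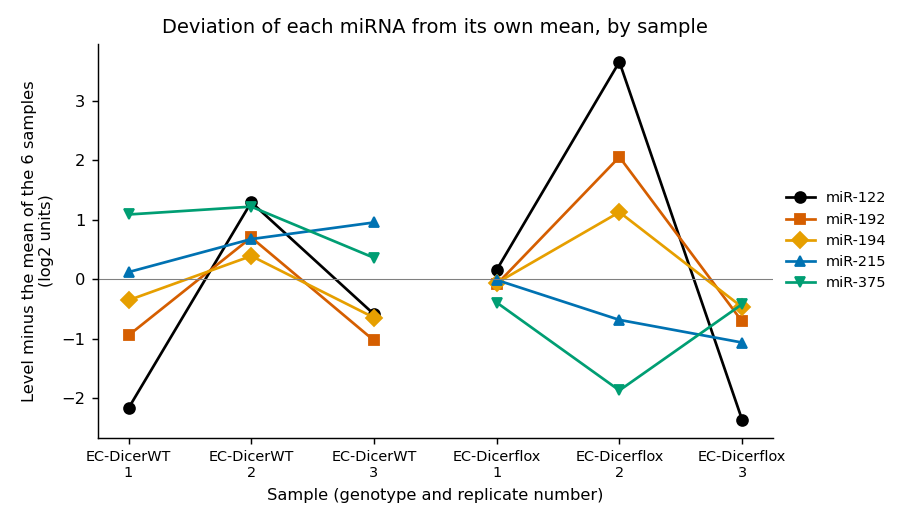
Level of each miRNA minus its own mean over the 6 aortas (log2 units), by sample, with a line for each miRNA within a genotype. miR-122, miR-192 and miR-194 are highest in replicate 2 of both groups, with the widest swings for miR-122, while miR-375 is lowest in EC-Dicerflox replicate 2.

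The other miRNA of the clusters, miR-215, showed no such relation. Its r was -0.28 with miR-192, which has the same seed, and -0.26 with miR-194, which lies beside it on chromosome 1 (adjusted exact permutation p = 0.715 for both). Leaving out 1 aorta at a time gave -0.66 to 0.18 with miR-192 and -0.71 to 0.21 with miR-194. On raw CT values the 2 r were 0.35 and 0.48, and as deviations from the group means 0.088 and 0.029. Neither sign nor size was thus settled. Whether these correlations differ from that of miR-192 and miR-194 was not tested. miR-215 and miR-375 had an r of 0.681 (adjusted exact permutation p = 0.326), which was -0.078 as deviations from the group means. The miRNAs most alike to miR-215 were miR-465C-5P (r = 0.932) and miR-1897-5p (r = 0.916), and those most alike to miR-375 were miR-1954 (r = 0.968) and miR-1903 (r = 0.916).

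**Figure D4:**
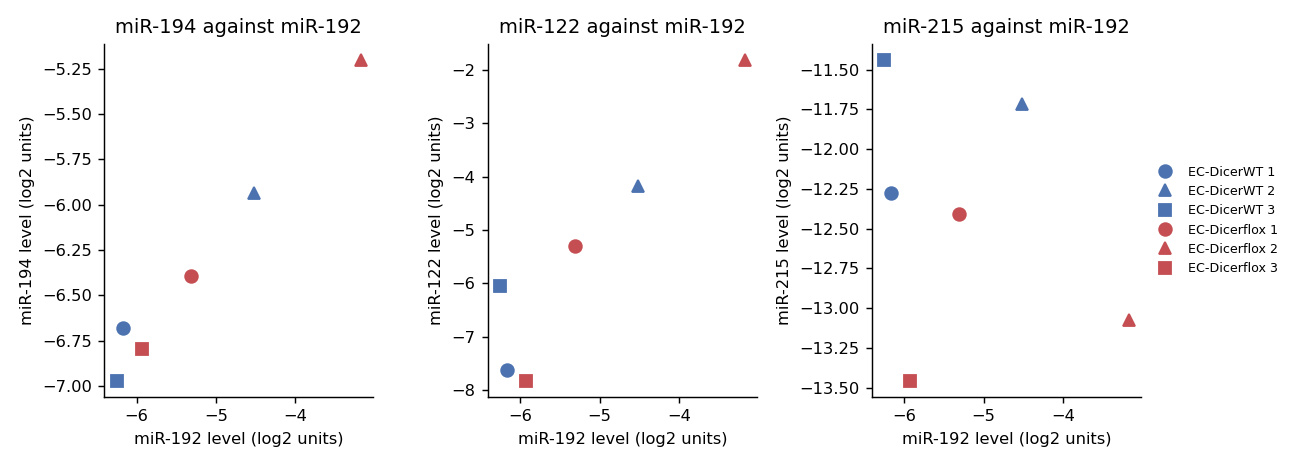
Level of miR-194, miR-122 and miR-215 against miR-192 (log2 units, each vertical axis on its own range) in the 6 aortas, coloured by genotype and with symbols by replicate number. miR-194 and miR-122 lie along a rising line with r of 0.991 and 0.938, and miR-215 does not, with r of -0.28.

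Other miRNAs were read from a mixed list of 19 names, of which 12 were in the table as 13 assays. It holds liver and pancreas miRNAs beside miRNAs of wider expression, such as miR-31 and miR-101a, and miR-147, which is known to be induced in inflammation, so that it is no measure of liver or pancreas RNA. Of the 11 assays tested, 2 were lower and 9 higher in EC-Dicerflox aortas, none at an unadjusted limma p under 0.05, with a median difference of 0.26 log2 units. The smallest p was that of miR-147, with a difference of -4.14 log2 units (limma, unadjusted p = 0.158), which was at the detection limit in 2 EC-Dicerflox aortas. The groups did not overlap for 1 of the 11, miR-204, with EC-Dicerflox higher by 0.46 log2 units (limma, unadjusted p = 0.164). Over all miRNAs tested this was so for 6.07%. The liver-enriched miR-802 gave a signal only in EC-Dicerflox replicate 2 (CT of 32.07) and EC-DicerWT replicate 2 (CT of 35.90). These were the 2 aortas with the highest miR-122, miR-192 and miR-194. Of 24 assays with a signal in exactly 2 aortas, 3 had it in this pair of aortas, and miR-802 was singled out after its values were seen. The mean level of the 7 assays of the list with a signal in all aortas (miR-7a, miR-7b, miR-31, miR-101a, miR-148a, miR-184 and miR-204) was highest in EC-Dicerflox replicate 2 (-6.89) but -7.68 in EC-DicerWT replicate 2, inside the range of the other 4 aortas (-7.81 to -7.44). The liver and pancreas miRNA miR-148a was highest of all in EC-Dicerflox replicate 2, at -3.70, and lowest of all in EC-DicerWT replicate 2, at -4.47. Of the pancreatic acinar miRNAs, miR-216a was at the limit in all 6 aortas, and miR-216b gave a signal in EC-Dicerflox replicate 2 (CT of 32.28) and EC-DicerWT replicate 3 (CT of 34.04). The 2 assays of miR-217 disagreed, with 1 at the limit in all 6 aortas and the other under 40 in 4, at CTs of 39.67 and 38.37 in EC-Dicerflox replicates 1 and 2 and 35.21 and 35.19 in EC-DicerWT replicates 2 and 3.

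The levels of 10 single marker miRNAs of smooth muscle, endothelium, leukocytes and blood cells spanned 0.38 log2 units (miR-143) to 2.35 log2 units (miR-451) over the 6 aortas, against 6.01 for miR-122, 3.08 for miR-192, 1.77 for miR-194, 2.02 for miR-215 and 3.09 for miR-375. The range was 1.59 (miR-182) to 3.38 (miR-429) for 8 epithelial markers, 0.79 (miR-9) to 9.09 (miR-219) for 4 neuronal markers and 0.47 (miR-133a) to 1.73 (miR-1) for 3 striated muscle markers. That of miR-219 rested largely on EC-Dicerflox replicate 3, with a CT of 24.98 against 29.36 to 32.73 in the other aortas. The mean level of the endothelial pair miR-126-3p and miR-126-5p was -0.83 to -0.030 in EC-Dicerflox and -1.27 to -1.04 in EC-DicerWT aortas, highest in EC-Dicerflox replicate 2. That of miR-143 and miR-145 was 2.93 to 3.76 in EC-Dicerflox and 2.88 to 3.19 in EC-DicerWT aortas. The leukocyte markers, 4 of 4 under 40 in all samples, had a mean level of -4.70 to -4.18 in EC-Dicerflox and -4.15 to -3.91 in EC-DicerWT aortas. The blood cell miRNAs miR-451 and miR-486 had a mean level of -2.38, -2.23 and -3.22 in EC-Dicerflox and -1.71, -2.62 and -3.49 in EC-DicerWT replicates 1, 2 and 3. They were second highest in EC-Dicerflox replicate 2, the aorta with the most miR-122, and lowest in EC-Dicerflox replicate 3 and EC-DicerWT replicate 3, of which the former had the least miR-122. They were highest in EC-DicerWT replicate 1, in which miR-122 was second lowest. The part of these cell types or of blood in the levels of the 5 miRNAs was not tested.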

How the data were processed

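Total RNA from 6 aortas was reverse transcribed, preamplified and read on TaqMan rodent miRNA cards in 2 assay sets. The deposited values are raw CT values, a score of PCR cycles on which the authors set a limit of 40. No build or processing software beyond StatMiner is named. The labels and the methods differ on the sex of the mice, which no result uses. From the deposited table, minus delta CT was computed against the mean of U6 and snoRNA135 (4 assay values). The 461 miRNAs detected below 40 in any sample were fitted with limma 3.58.1 in R 4.3.3, group only, two-sided, with Benjamini-Hochberg adjustment. Exact permutation tests enumerated 20 arrangements for groups and 720 for correlations (Python 3.11.15, numpy 2.4.6), and scipy 1.17.1 gave the observed r and rho. The fit was tested on simulated data, and its acceptance limit was reset after a first run exceeded it. The labels do not say whether replicate numbers of the 2 groups are paired. Deviations of same-numbered samples correlated at 0.150, 0.224 and 0.431 over 350 miRNAs, but EC-Dicerflox replicate 1 correlated more with EC-DicerWT replicate 2 (0.285). The pairing is thus unsettled, and the main fit did not use it. The 5 miRNAs, the marker and related lists, and the tests were chosen with earlier results of these data known. The correlations between miRNAs, the share of all gaps that do not overlap, the scaling to controls of the same assay set and the values without replicate 2 of both groups were added after the values were seen. Named are the 5 miRNAs, the 2 most alike to each, and 1 miRNA per list with the smallest p; others named were chosen after their values were seen.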

Additional observations from a re-analysis of the deposited data

How the results depend on the processing

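The genotype fit had 13 alternatives (undetermined wells, low-value filters, control RNAs, moderation, the replicate block, and the 2 added after the data were seen). The wells, filters, moderation and block cannot move the 5 differences, since all their CTs were under 35 and the groups are equal in size. Only other control RNAs and leaving out replicate 2 of both groups could move them. The differences kept their direction there. They were 0.28 to 1.05 log2 units for miR-122, 0.59 to 0.93 for miR-192, 0.23 to 0.48 for miR-194, -1.33 to -1.07 for miR-215 and -1.94 to -1.13 for miR-375. No adjusted p of the 5 miRNAs was under 0.767 in any of the 13. The unadjusted limma p stayed under 0.05 in 9 of 13 for miR-215 and 12 of 13 for miR-375, and in 2 of 6 and 4 of 6 fits without 1 aorta. With the replicate block the unadjusted limma p-values were 0.434 for miR-122, 0.0738 for miR-192, 0.220 for miR-194, 0.0879 for miR-215 and 0.0477 for miR-375, and the block changed no adjusted call. Leaving out 1 aorta gave -0.61 to 2.39 for miR-122, 0.026 to 1.41 for miR-192, -0.064 to 0.73 for miR-194, -1.46 to -0.93 for miR-215 and -2.05 to -1.29 for miR-375. The difference in the CT gap from miR-122 was reversed to -0.641 cycles for miR-192 and -0.551 for miR-194 without EC-Dicerflox replicate 2, and to -0.453 and -0.195 without EC-DicerWT replicate 1, with ranges over the aortas left out of -0.641 to 0.984 and -0.551 to 1.66. Counts of miRNAs lower at an unadjusted p under 0.05 went from 9 to 14 with snoRNA202 alone and 16 without replicate 2 of both groups. Counts higher went from 5 to 3 with U6 alone, 14 in an ordinary linear model, 8 with trend and robust moderation, and 3 without replicate 2 of both groups, while the count at an adjusted p under 0.05 was 0 in all 13. Leaving out 1 aorta gave 7 to 12 lower, 4 to 10 higher and 0 to 2 at an adjusted p under 0.05 (2 without EC-Dicerflox replicate 1 and 1 without EC-Dicerflox replicate 3, none of them among the 5 miRNAs), and the causes were not tested. Under 7 other scalings, group-mean deviations included, r was 0.977 to 0.997 for miR-192 and miR-194, 0.926 to 0.958 for miR-122 and miR-192, and 0.895 to 0.931 for miR-122 and miR-194, whose adjusted exact permutation p was 0.0741 with all endogenous controls. Without 1 aorta these r were 0.969 to 0.999, 0.824 to 0.983 and 0.760 to 0.981. Without replicate 2 of both groups they were 0.884, 0.561 and 0.385. The SD over the 6 aortas was 1.14 for miR-194 on raw CT against 0.66, and the other SDs stayed within 1.5 times their values under the 4 scalings tried. Each group has 3 aortas and each CT is a single deposited value, which limits the precision.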

Other observations

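Lists of epithelial, neuronal and striated muscle marker miRNAs were also read, and a signal for them does not by itself show that these cell types were present. Of 10 epithelial miRNAs (the miR-200 and miR-183 families, miR-203 and miR-205) 8 gave a signal in all 6 aortas, with 5 lower and 5 higher in EC-Dicerflox aortas and a median difference of -0.19 log2 units. The smallest p was that of miR-96, at 4.92 log2 units (limma, unadjusted p = 0.0433, adjusted p = 0.923). miR-96 was at the detection limit in EC-DicerWT replicate 2, and the difference was 3.00 log2 units with that well left missing and 3.21 with CTs above 35 set to 35. In the miR-200 family, which was singled out after its values were seen, 4 of 5 members had lower means in EC-Dicerflox aortas, at -0.94 for miR-200a, -1.39 for miR-429, -0.68 for miR-141 and -0.68 for miR-200c, and miR-200b was at 0.69. The smallest unadjusted limma p of the family was 0.0788, for miR-200a. Of the 29 assays tested in the marker lists, the groups did not overlap for miR-142-5p and miR-200a, with EC-Dicerflox lower, and for miR-126-3p, miR-126-5p, miR-96 and miR-9, with EC-Dicerflox higher, beside 4.34% lower and 6.07% higher over all miRNAs tested. Of 5 neuronal miRNAs 4 gave a signal in all aortas, with 2 lower and 3 higher and a median of 0.49, led by miR-9 at 0.49 (limma, unadjusted p = 0.116). Of the striated muscle miRNAs 4 were tested and all 4 had higher means in EC-Dicerflox aortas, with a median of 0.37 and the smallest limma p of 0.335 for miR-133b. The leukocyte list had 3 lower and 1 higher with a median of -0.40, led by miR-142-5p at -0.996 (limma, unadjusted p = 0.00989, adjusted p = 0.923). Both smooth muscle miRNAs and both endothelial miRNAs had higher means in EC-Dicerflox aortas, with medians of 0.19 and 0.63. The smallest unadjusted limma p of these lists was 0.572 for miR-143 and 0.0727 for miR-126-5p. The blood cell miRNAs had 1 lower and 1 higher with a median of -0.0072, led by miR-486 (limma, unadjusted p = 0.627). No miRNA of these lists passed the adjusted test.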
